A study of Homo sapiens with 8 samples.

Results

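The regions described here are promoter islands of H3K27me3 that carry no H3K4me3 in PC9, an established line of human lung adenocarcinoma. An island is a stretch of the genome that the SICER algorithm calls as enriched for ChIP-seq tags. The islands were chosen by their state with DMSO. They come from the spike-in normalized list of H3K27me3 DMSO replicate 1, overlap an island of DMSO replicate 2 by at least 1 bp, are shorter than 40 kb, hold the annotated start of a protein-coding gene (GENCODE, GRCh37), and overlap no H3K4me3 island of either DMSO replicate. Of 35901 islands in DMSO replicate 1, 32479 overlapped replicate 2, 2827 of these held a gene start and 2640 were under 40 kb. H3K4me3 was absent from 1707 of them, and these are the members. The other 933 overlapped an H3K4me3 island and are called bivalent promoter islands. The members held 1836 starts of 20163, or 9.11% of annotated protein-coding starts.

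The data consisted of 8 ChIP-seq libraries, with 2 replicates for each mark and treatment. PC9 cells were cultured for 5 days with DMSO or with 1 μM GSK126, a small molecule inhibitor of the H3K27 methyltransferase EZH2. All ChIP reactions also received chromatin from D. melanogaster OSS cells and an antibody to the fly histone variant H2Av, which serves as a spike-in. The study describes the replicates as separate biological experiments, in a single cell line. Every GSK126 library had a standard list, for which its tags and those of its DMSO partner had been brought to an equal number, and a spike-in list, called after tags had been removed according to the fly tags. In the spike-in lists the tag density, read from the island scores, for H3K27me3 was 1.65 tags per 200 bp window in DMSO replicate 1 and 0.382 in GSK126 replicate 1, compared to 2.33 and 0.455 in replicate 2. GSK126 lists were thus built with 0.231 and 0.196 times the tags of DMSO. In the standard lists it was 1.36 tags per window for both treatments in replicate 1 and 1.55 in replicate 2. The H3K4me3 DMSO lists had 1.77 tags per window in replicate 1 but only 0.302 in replicate 2, and of the bivalent islands 165 were bivalent by replicate 1 only and 12 by replicate 2 only.

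H3K27me3 is laid down by Polycomb repressive complex 2, whose catalytic subunit is EZH2, and is found at promoters of genes that a cell type keeps silent. H3K4me3 marks promoters that are active or poised, and promoters with both marks are known as bivalent. Polycomb targets are classically CpG-island promoters of developmental regulators, whereas tissue-specific genes often have promoters with few CpG dinucleotides.

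Promoters of both kinds were found among the members, and 3 of them are shown to illustrate the range of CpG content. Each sequence is the 250 bases before the annotated start, read 5′ to 3′ on the strand of the gene from GRCh37, with each CpG in capitals. Among the 50 highest-scoring members with a single start that had a GSK126 island in both replicates, and among the 50 that had none in either, promoters with the highest or the lowest ratio of observed to expected CpG are given. Windows that touched an annotated exon were passed over. The ATP2B2 promoter (chr3:10749693-10749942, minus strand) had 38 CpG and a ratio of 1.06. The SIGLEC10 promoter (chr19:51921058-51921307, minus strand) had 2 CpG and a ratio of 0.0907. Both lie in islands that had GSK126 islands in both replicates. The LRFN2 promoter (chr6:40555104-40555353, minus strand) had 22 CpG and a ratio of 0.899, and its island overlapped no GSK126 spike-in island.
ATP2B2: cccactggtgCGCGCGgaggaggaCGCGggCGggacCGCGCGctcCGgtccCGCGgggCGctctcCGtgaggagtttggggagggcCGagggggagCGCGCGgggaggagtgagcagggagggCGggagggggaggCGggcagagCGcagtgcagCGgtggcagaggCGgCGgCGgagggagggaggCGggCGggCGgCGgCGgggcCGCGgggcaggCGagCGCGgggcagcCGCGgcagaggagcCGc
SIGLEC10: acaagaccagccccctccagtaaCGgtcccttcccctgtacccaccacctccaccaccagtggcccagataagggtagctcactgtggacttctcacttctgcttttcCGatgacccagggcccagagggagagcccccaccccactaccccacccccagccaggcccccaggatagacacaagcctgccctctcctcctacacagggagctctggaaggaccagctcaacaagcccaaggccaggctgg
LRFN2: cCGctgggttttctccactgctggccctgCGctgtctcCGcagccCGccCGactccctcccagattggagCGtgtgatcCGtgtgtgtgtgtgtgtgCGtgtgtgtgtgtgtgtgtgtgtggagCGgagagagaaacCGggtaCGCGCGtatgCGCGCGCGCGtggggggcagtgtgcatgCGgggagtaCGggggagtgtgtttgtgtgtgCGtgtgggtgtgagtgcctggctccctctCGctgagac
ATP2B2 encodes a plasma membrane calcium pump of neurons and hair cells, SIGLEC10 a sialic acid-binding receptor of immune cells and LRFN2 a synaptic adhesion protein. The ATP2B2 island was 31.4 kb long, and GSK126 spike-in islands covered 65.6% and 76.4% of it in replicates 1 and 2. The SIGLEC10 island was 36.8 kb long and was covered to 69.6% and 67.4%. The LRFN2 island was 14 kb long, with 94.3% and 42.9% covered in the standard GSK126 lists.

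CpG content at the member starts was spread over a low and a high range. In the 250 bases before and after the start, the median ratio of observed to expected CpG was 0.382 over the 1836 member starts (quartiles 0.219 and 0.717). It was 0.746 over 1047 starts in bivalent promoter islands, 0.824 over 11167 starts in H3K4me3 islands only and 0.271 over 5270 starts in neither mark. A start was called CpG-rich when the ratio was at least 0.6 and GC content at least 50%. By this measure 618 member starts were CpG-rich, or 33.7%, compared to 68.1% of bivalent starts, 82.2% of starts with H3K4me3 only, 18.6% of starts in neither mark and 58.9% of all protein-coding starts. Member starts were therefore poorer in CpG than bivalent starts, but richer than starts without either mark. GC content differed less, with a median of 59.4% at member starts, 67.8% at bivalent starts and 49.0% at starts in neither mark. The motif TATAAA, searched on both strands from 50 to 10 bases before the start, was present at 121 member starts, or 6.59%. The share was 3.85% over all protein-coding starts, 2.58% over bivalent starts and 7.74% over starts in neither mark. These are descriptions of the reference sequence and were not tested.

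**Figure D1:**
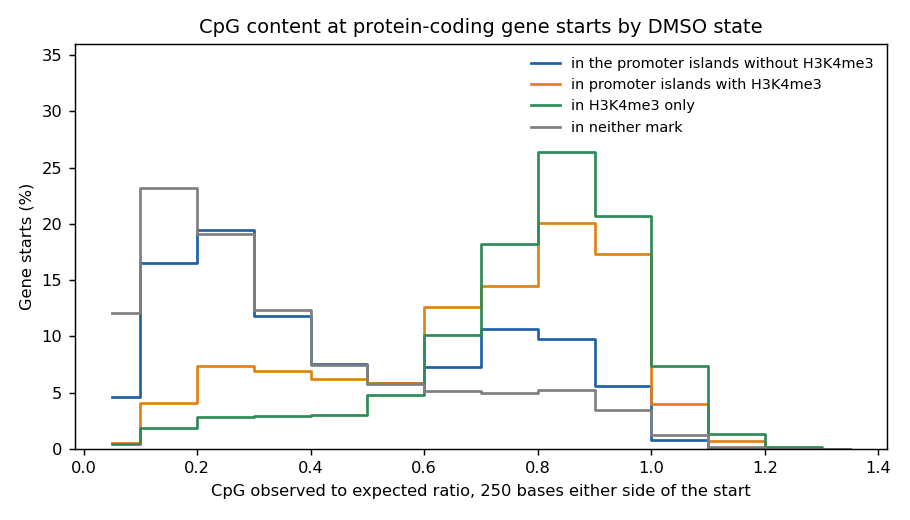
Distribution of the CpG observed to expected ratio in 250 bases either side of protein-coding gene starts, as the percentage of starts (vertical axis) in steps of 0.1 (horizontal axis), for 4 states of the start with DMSO. Starts in the promoter islands without H3K4me3 (blue) have a peak at low and a smaller peak at high CpG content, whereas 68.1% of starts in promoter islands with H3K4me3 (orange) are CpG-rich.

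The members had a median length of 7.6 kb (quartiles 4.2 and 14.2 kb, range 0.8 to 39.8 kb), similar to the bivalent promoter islands (median 7.2 kb) and longer than the 27644 islands under 40 kb that held neither a start nor H3K4me3 (median 4.8 kb). The SICER score, which sums the enrichment over all windows of an island, had a median of 242 for members, 278 for bivalent islands and 110 for islands without a start. Most members (1590) held a single start, 106 held 2 starts and 11 held 3 or more. The island extended a median of 2.69 kb upstream and 4.11 kb downstream of the start. More of it lay downstream at 1192 of 1836 starts (64.9%), and 433 genes (23.6%) lay wholly inside their island. The distance to the nearest DMSO H3K4me3 island had a median of 36.8 kb, and 406 members (23.8%) had such an island within 10 kb. The share of starts held by members ranged between chromosomes from 1.84% on chromosome 4 to 13.7% on chromosome 20, apart from chromosome Y, where no start was held.

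The thresholds of the selection fell between similar islands. Just inside the length limit were the islands of TSPOAP1 (39.8 kb), FXYD6 and FXYD6-FXYD2 (39.6 kb) and GYPC (39.4 kb), and just outside were those of RAB37 (40 kb), NRXN3 (40.4 kb) and of CEACAM18 and SIGLEC12 (40.8 kb). For H3K4me3, the islands of MLN, KLK4 and KRT2 directly adjoined an H3K4me3 island without overlap and were included. The islands of MSLNL, PROZ and FMNL3, in which an H3K4me3 island covered 2.86%, 3.03% and 2.13% of the length in 1 replicate, were excluded.

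Genes expected to be active in PC9 cells were not among the members, which the selection itself sets for starts in H3K4me3 islands. Of 8 epithelial identity genes, EPCAM, CDH1, KRT8, KRT18, KRT19 and ITGB4 started in H3K4me3 islands only, CLDN4 in neither mark, and EGFR had H3K27me3 called at its start with DMSO but outside the islands shared by both replicates. All 8 housekeeping genes, among them ACTB and GAPDH, started in H3K4me3 islands only. Markers of other tissues were present among the members in unequal numbers. Members held 9.11% of all starts, a base that includes the starts in H3K4me3 islands. The members held 6 of 10 markers of endocrine pancreas (INS, SST, PPY, CHGA, NEUROD1 and ABCC8), 7 of 13 of liver and 7 of 15 of skeletal and heart muscle. They held fewer markers of blood cells (6 of 20), fibroblast and mesenchyme (2 of 12), squamous epithelium (2 of 10), neurons (2 of 20) and endothelium (VWF, 1 of 9), and for neurons and endothelium the share was close to that of all starts. Of the neuronal markers, 3 lay in islands of 40 kb or more and 9 started in neither mark, among them RBFOX3 and SYP.

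Gene families, matched by their symbols, were also unevenly represented. Against 9.11% of all starts, the members held 11 of 35 serpins (31.4%), 37 of 138 voltage-gated and related cation channels (26.8%), 26 of 101 neurotransmitter receptors (25.7%), 20 of 79 orphan G protein-coupled receptors (25.3%), and 37 of 149 keratins and keratin-associated proteins (24.8%). Zinc finger genes had a lower share, with 21 of 509 (4.13%) in members and 404 in H3K4me3 islands only. The selection bars starts in H3K4me3 islands from the members, and 11167 of all starts were in such islands only. Shares set against 9.11% therefore also depend on how many starts of a family had H3K4me3. Shares without those starts were not computed. Keratins and keratin-associated proteins had no member of the family in a bivalent island, and 98 started in neither mark. Olfactory receptors also had none in a bivalent island, with 49 of 401 (12.2%) in members and 335 in neither mark. By contrast, genes named as developmental transcription factors, the classical Polycomb targets, numbered 31 of 179 (17.3%) in members and 31 in bivalent islands. The 31 in members include FOXL2NB, a neighbour of FOXL2 that carries its name and is not itself a transcription factor. Collagens had 10 genes in each set. Toll-like receptors had 0 of 10 genes in members, and taste receptors 1 of 27. The families differed in CpG content. CpG-rich starts numbered 25 of 31 among the member developmental transcription factors and 17 of 37 among the cation channels, but 1 of 49 among olfactory receptors, 1 of 37 among keratins and keratin-associated proteins, and 0 of 11 among serpins. Families of near-identical copies, such as keratin-associated proteins and olfactory receptors, were measured with uniquely mapped tags only, and the part of this in their counts was not tested.

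**Figure D2:**
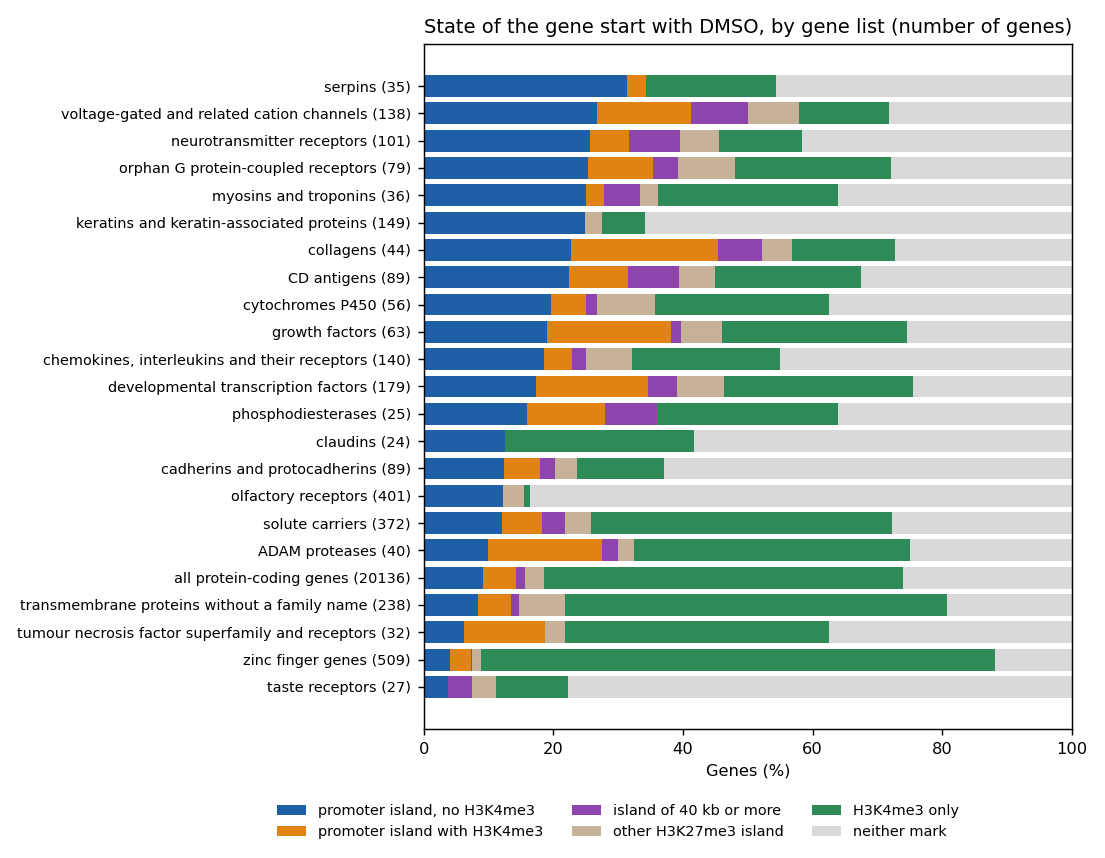
State of the gene start with DMSO for gene lists of at least 20 genes, as the percentage of genes in each list (horizontal axis), with the number of genes in brackets and lists ordered by the share in promoter islands without H3K4me3 (blue). Serpins (31.4%) and cation channels (26.8%) are at the top, and zinc finger genes (4.13%) are mostly in H3K4me3 islands (green).

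To find out how the members responded to EZH2 inhibition, their overlap with islands of the GSK126 libraries was counted. These lists were not used in the selection. As all members had an island with DMSO, only the loss of a call could be seen. In the spike-in lists, 1084 members (63.5%) overlapped a GSK126 island in replicate 1 and 1051 (61.6%) in replicate 2, a mean of 62.5% ± 1.37 (SD, n = 2). A GSK126 island was present in both replicates at 951 members (55.7%) and in neither at 523 (30.6%). For comparison, of all 32479 shared DMSO islands 35.2% overlapped a GSK126 island in both replicates and 50.2% in neither. The length of the members covered by islands was 17.9 Mb for DMSO and 9.57 Mb for GSK126 in replicate 1. In replicate 2 the lengths were 16.8 Mb and 10.2 Mb. The log2 ratio of these lengths, GSK126 over DMSO, was −0.90 and −0.73 in the respective replicates, a mean of −0.82 ± 0.12 (SD, n = 2), and over all shared DMSO islands it was −1.09 and −0.93. At equal tag number, in the standard lists, it was −0.18 and −0.24 for members and −0.23 and −0.35 for all shared DMSO islands. Because the members are DMSO islands, a lower covered length with GSK126 is largely set by the selection, and these ratios are a description without a test. At the gene start itself, 47.3% and 48.4% of starts remained inside a GSK126 island, compared to 100% and 96.6% with DMSO, of which the 100% is set by the selection.

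When both treatments were compared at the same number of tags, more members were called. In the standard lists 83.6% and 80.2% of members overlapped a GSK126 island in replicates 1 and 2, or 81.9% ± 2.40 (SD, n = 2), and 1318 members did so in both (77.2%, against 59.2% of all shared DMSO islands). Between the lists of the same GSK126 library, the difference came from 349 members in replicate 1 (20.4%) and 319 in replicate 2 (18.7%) that had a standard but no spike-in island. Another 280 and 338 members had no standard island. The standard DMSO lists, in turn, had an island at 1587 and 1635 members, so that some members were near the limit of detection with DMSO as well. The GSK126 spike-in lists hold fewer tags, and a missing island therefore says that enrichment was not detectable at that depth.

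**Figure D3:**
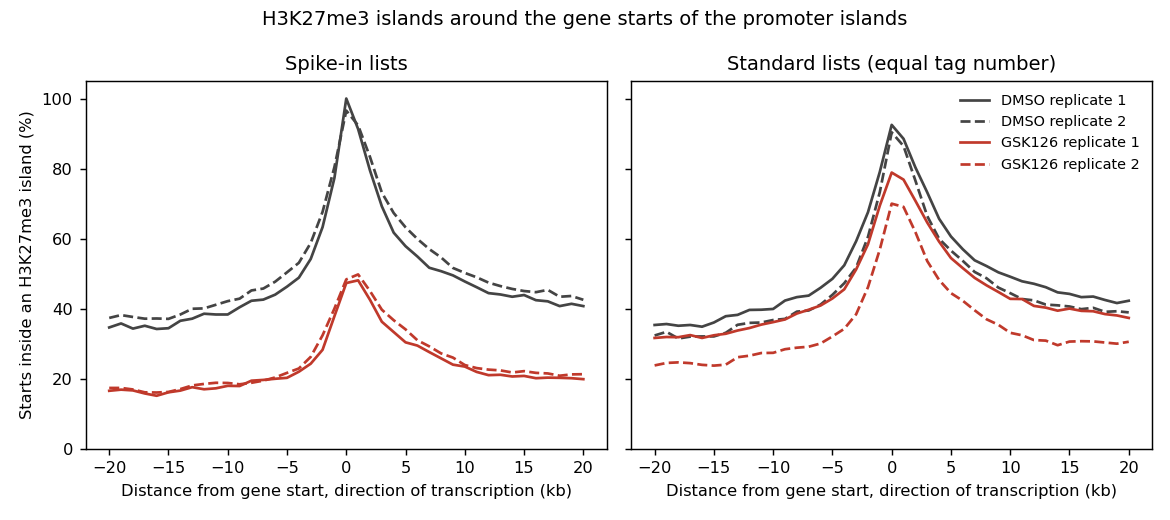
Percentage of the 1836 starts (vertical axis) at which a position 20 kb before to 20 kb after the start (horizontal axis, in the direction of transcription) lies inside an H3K27me3 island, for DMSO (grey) and GSK126 (red) in replicate 1 (solid) and 2 (dashed). GSK126 is at 47.3% and 48.4% at the start in the spike-in lists (left), and lies closer to DMSO in the standard lists (right).

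The share of members still called went up with their length and score. Of members under 4 kb, 22.9% ± 2.77 (SD, n = 2 here and in the following shares) overlapped a GSK126 spike-in island. The share was 47.8% ± 1.85 from 4 to 8 kb, 77.5% ± 0.992 from 8 to 12 kb, 93.8% ± 0.251 from 12 to 20 kb and 99.2% ± 0.575 from 20 to 40 kb. By score, it went from 13.5% ± 0.912 in the lowest of 4 score classes (465 members with scores under 113) to 99.9% ± 0.172 in the highest (410 members with scores above 660). The differences between these classes exceeded the spread between replicates. The chance of a call depends on length and score in any list, and the part of this in the shares was not tested.

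The members were called less often than the bivalent promoter islands in both replicates. The spike-in share was 71.1% and 66.5% for bivalent islands, and the difference of members minus bivalent islands was −7.56 percentage points in replicate 1 and −4.88 in replicate 2 (mean −6.22 ± 1.89, SD, n = 2). The difference was larger among short islands. Under 4 kb, 36.6% ± 3.87 of bivalent islands were called, against 22.9% of members, and from 4 to 8 kb 59.3% ± 3.69, against 47.8%. From 8 to 12 kb the shares were 77.6% ± 6.51 and 77.5%, which is within the spread, and from 12 to 20 kb 96.7% ± 0.930 and 93.8%. Averaged over the 4 score classes, the difference was −1.79 ± 1.64 percentage points. In the third class the order was the reverse, with 92.3% ± 1.36 of members and 91.2% ± 5.53 of bivalent islands called, within the spread. In the other classes the mean was lower for members. It was most so in the second, at 50.6% ± 3.07 against 57.8% ± 8.37, a difference within the larger SD. In the lowest class the order differed between replicates. Members were at 14.2% and 12.9% in replicates 1 and 2, and bivalent islands at 13.3% and 15.9%. Bivalent islands had a higher score per kb (median 40.1, against 33.2 for members). The members were nevertheless called more often than islands without a start or H3K4me3, of which 40.3% and 37.1% were called, and this held under 4 kb (15.3% ± 1.54) and from 4 to 8 kb (33.8% ± 2.54) too. However, in the second score class (scores from 113 to 251), 50.6% ± 3.07 of members and 46.1% ± 5.34 of islands without a start were called, a difference within the spread.

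**Figure D4:**
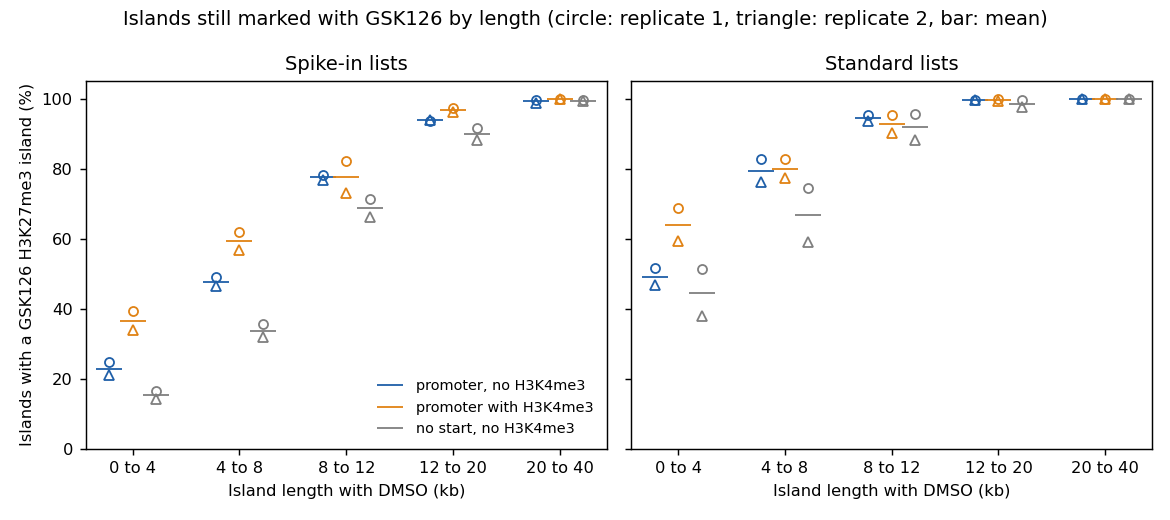
Percentage of islands with a GSK126 H3K27me3 island (vertical axis) by length with DMSO in kb (horizontal axis) in the spike-in (left) and standard lists (right), for replicates 1 (circle) and 2 (triangle) and their mean (bar). In the spike-in lists, promoter islands without H3K4me3 (blue) go from 22.9% under 4 kb to 99.2% at 20 to 40 kb and lie below promoter islands with H3K4me3 (orange) under 8 kb.

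CpG-rich members were called with GSK126 more often than CpG-poor members. Of 566 members whose starts were all CpG-rich, 69.6% and 68.0% overlapped a GSK126 spike-in island in replicates 1 and 2, compared to 60.1% and 57.8% of 1117 CpG-poor members. The lengths were similar, with medians of 7.8 and 7.4 kb, and the scores had medians of 267 and 224. Within length classes the difference varied. Under 4 kb, 26.3% ± 3.60 of CpG-rich and 21.5% ± 2.39 of CpG-poor members were called, and from 8 to 12 kb 81.3% ± 2.56 and 75.9% ± 2.46. From 20 to 40 kb the order was the reverse, at 98.9% ± 1.57 and 99.3% ± 0. The largest difference was in the class of 4 to 8 kb, where 58.7% ± 2.54 of 167 CpG-rich and 42.6% ± 1.74 of 365 CpG-poor members were called. Bivalent islands of that length showed the same order, at 63.5% ± 3.81 of 204 CpG-rich and 49.4% ± 4.77 of 89 CpG-poor islands, but from 12 to 20 kb they were at 96.8% ± 1.49 and 97.9% ± 0. The ranges of the replicates for CpG-rich and CpG-poor islands of 4 to 8 kb did not overlap in either set. However, this length class was singled out for its difference among the members. CpG-rich and CpG-poor islands were not compared within score classes.

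The gene lists also differed in how many of their member genes lay in islands called in both GSK126 replicates. Against 56.8% of all genes in members, the count was 23 of 31 for developmental transcription factors (74.2%), 8 of 10 for collagens, 25 of 37 for cation channels (67.6%) and 6 of 6 for the endocrine pancreas markers. It was 20 of 49 for olfactory receptors (40.8%). For CD antigens (10 of 20) and chemokines, interleukins and their receptors (13 of 26) it was 50%, nearer the share of all genes. Among other markers, it was 4 of 7 for liver, 4 of 7 for muscle and 2 of 6 for blood cells. None of the 3 claudins was called in both, and their islands were short (2.8 to 5.6 kb) with low scores (76.5 to 150). TBX5, a regulator of heart and limb development, had the highest score of the transcription factors, and GSK126 spike-in islands covered 81.5% and 93.6% of its 34.6 kb in replicates 1 and 2. FGF23, a phosphate-regulating hormone, kept 97.4% of its 30.6 kb in both replicates. SST, which encodes somatostatin, was covered to 62.5% and 41.7%, and APOB, the apolipoprotein of low-density lipoprotein, to 17.5% and 46.3%. SOX10, a regulator of neural crest and glia, and CLDN19, a tight junction protein of the kidney, had no GSK126 island in any of the lists. KRT1, a keratin of the differentiated epidermis, had a GSK126 island only in the standard list of replicate 1, over 65.8% of its length. Lists of this size, some of whose genes share an island, were not tested, and they were not compared at equal length or score.

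Members at the top of the score range kept most of their length, which was not particular to them. In the highest score class, GSK126 spike-in islands covered a median of 72.6% and 78.5% of members in replicates 1 and 2. The medians were 73.2% and 76.7% for bivalent islands, and 77.4% and 81.3% for all shared DMSO islands. The 10 highest-scoring islands in DMSO replicate 1 held the starts of NGB, TPSG1, CACNA1B, TSPOAP1, SHANK1 with CLEC11A, GYPC, MLC1 with MOV10L1, NFAM1, SMTNL2 and DIPK1C. NGB encodes neuroglobin, an oxygen-binding protein of neurons, and its island (chr14:77702801-77740800, 38 kb) had the highest score, 8436. GSK126 spike-in islands covered 92.6% of it in replicate 1 and 96.8% in replicate 2. TPSG1, a tryptase of mast cells (chr16:1242001-1277400, 35.4 kb), was covered to 92.7% and 100%, and CACNA1B, the pore-forming subunit of the N-type calcium channel (chr9:140765801-140791800, 26 kb), to 90% and 90.8%. The lowest coverage of the 10 was at MLC1, a membrane protein of astrocytes, and MOV10L1, an RNA helicase of the germline, whose shared island was covered to 66.9% and 73.8%.

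At equal tag number the scores of these islands were higher with GSK126. Scores may be compared within a replicate between the standard lists, since both were called on the same number of tags. Here and below, the standard score of a member is the score of the standard islands that overlap it. Each island's score was allotted by the share of its length inside the member. A standard island that reaches beyond the member can thus bring in enrichment from outside it. An equal tag number takes out a change in the total between treatments, so a higher score is relative to the rest of the library. With spike-in normalization, the paper reports H3K27me3 lowered by GSK126 at most marked sites of the genome. The replicate 1 scores of the NGB island were 6554 for DMSO and 8991 for GSK126, and its replicate 2 scores 8683 and 13635. The log2 ratio was 0.46 and 0.65. The TPSG1 island scored 4947 for DMSO and 12268 for GSK126 in replicate 1, compared to 7995 and 29648 in replicate 2, for a log2 ratio of 1.31 and 1.89. All 10 were higher with GSK126 in both replicates, and the lowest log2 ratio was 0.02 at SMTNL2 in replicate 1. The opposite was found for the 5 highest-scoring members without a GSK126 spike-in island in either replicate, which held HTR3C, OC90, OSGIN1, KRTAP5-10 and KRT77. HTR3C, a subunit of the serotonin-gated ion channel (chr3:183761601-183779600, 18 kb), scored 414 for DMSO and 266 for GSK126 in replicate 1, compared to 469 and 102 in replicate 2. OSGIN1, a gene induced by oxidative stress (chr16:83964001-83976000, 12 kb), scored 320 and 146 in replicate 1, and 358 and 140 in replicate 2. All 5 were lower with GSK126 in both replicates, but these were selected for a missing GSK126 island, and their direction is a description.

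**Figure D5:**
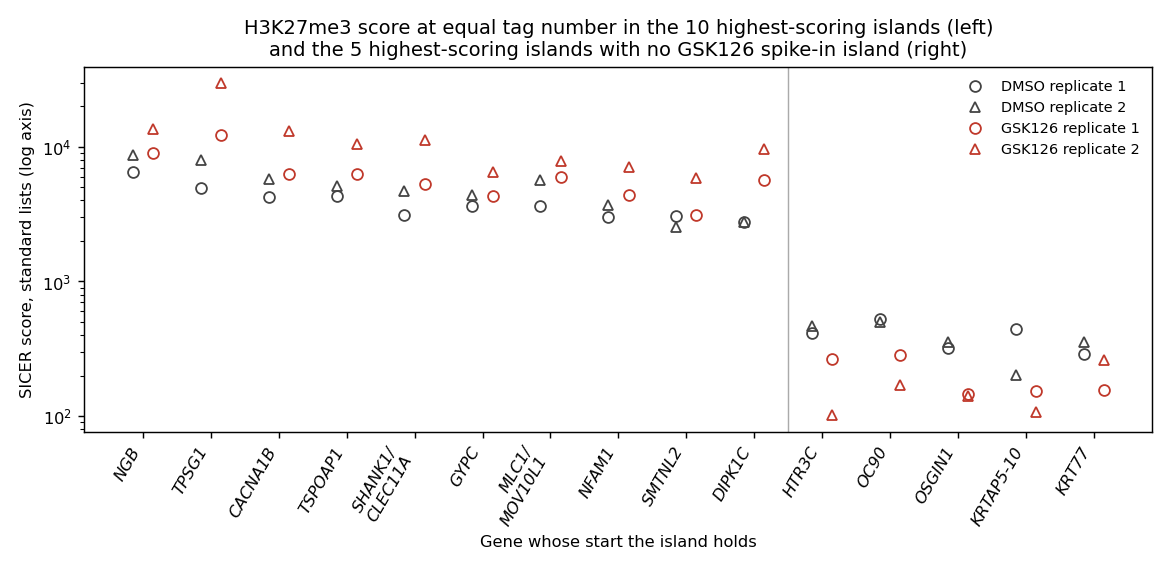
SICER score in the standard lists (log axis) of each library for the 10 highest-scoring promoter islands without H3K4me3 (left of the line) and the 5 highest-scoring ones with no GSK126 spike-in island (right), with DMSO in grey, GSK126 in red, circles for replicate 1 and triangles for replicate 2. The NGB island has 6554 and 8683 with DMSO and 8991 and 13635 with GSK126, while the islands on the right are lower with GSK126 in both replicates. Scores of standard islands are allotted by the share of their length inside the promoter island.

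Over all members the ratio also differed between score classes, but not steadily. In the highest score class, the median log2 ratio of the standard scores was 0.25 in replicate 1 and 0.46 in replicate 2 (410 members), and 291 (71.0%) and 293 (71.5%) members were higher with GSK126. In the second class the medians were −0.25 and −0.41, over the 384 and 359 members with islands in both lists, and 33.3% and 32.9% were higher. In the third class they were 0.00 and −0.01. In the lowest class they were −0.09 and −0.12, closer to 0 than in the second, and 39.6% and 46.0% were higher, over the 187 and 176 members with islands in both lists. Over all members with islands in both standard lists, the median was 0.00 in replicate 1 (1398 members) and 0.02 in replicate 2 (1360 members), with quartiles of −0.35 and 0.39, and of −0.59 and 0.70. This pattern was not particular to the members. In the highest score class all shared DMSO islands had medians of 0.32 and 0.58, and in the second class −0.24 and −0.31. In the second class, bivalent islands had medians of −0.02 and 0.06, above those of the members in both replicates. Ratios leave out islands without a call in 1 of the lists, which were mostly those of low score, and the score is from DMSO replicate 1, which also enters the ratio of that replicate but not that of replicate 2.

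Short or weak members with a GSK126 island in both replicates were the exceptions to this order. The shortest was that of SLC26A5, which encodes prestin, the motor protein of outer hair cells, with 1.6 kb (chr7:103085401-103087000) and 100% covered in both GSK126 spike-in lists. The next in length were MT1B, a metallothionein, with 80% and 100% of 2 kb covered, COL6A5, a collagen VI chain, with 80% and 60% of 2 kb, and DEFB128, a beta-defensin, with 40% and 90% of 2 kb. The lowest score of a member called in both was at FEZF2, a transcription factor of forebrain development, with 47.3 over 2.6 kb, of which 84.6% and 100% was covered. FEZF2, COL6A5 and DEFB128 had no island in the standard DMSO list of replicate 1, but had one in that of replicate 2 and in both standard GSK126 lists. They were thus near the limit of detection with DMSO.

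Among the 11 members with 3 or more starts were clusters of related genes. One held KRTAP10-11, KRTAP12-3 and KRTAP12-4, keratin-associated proteins of the hair shaft (chr21:46065401-46079800), and was covered to 86.1% and 87.5% with GSK126 in the spike-in lists. Another held TNP2, PRM2 and PRM3, genes of sperm development (chr16:11352401-11373400), and was covered to 49.5% and 32.4%. The island of INS, IGF2 and their read-through gene (chr11:2173801-2182600) was covered to 59.1% and 45.5%. The most starts, 4, were in the island of the epididymal lipocalins LCN6, LCN8 and LCN10 and a gene without a symbol, with 73.3% and 72.6% covered.

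H3K4me3 was then examined with GSK126, where the selection allows a gain only. In the spike-in lists, 16 members (0.937%) in replicate 1 and 10 (0.586%) in replicate 2 overlapped an H3K4me3 island with GSK126, a mean of 0.762% ± 0.249 (SD, n = 2). Both replicates had one at 5 members (0.293%), compared to 0.0638% of the 29801 shared DMSO islands without H3K4me3 and 0.0470% of islands without a start. For bivalent islands, which had H3K4me3 with DMSO, the share with GSK126 was 91.4% and 79.7%. The 5 members were those of UGT3A2, a glycosyltransferase, PLPPR4, a phospholipid phosphatase-related protein of neurons, PPFIA2, a liprin of synapses, NCMAP, a protein of peripheral myelin, and SPAG17, a component of motile cilia. H3K4me3 covered 14.8% and 7.41% of the UGT3A2 island, 33.3% and 16.7% of the PLPPR4 island, 55.6% and 27.8% of the PPFIA2 island, 28.6% and 9.52% of the NCMAP island and 50% and 14.3% of the SPAG17 island. H3K27me3 remained called with GSK126 in both spike-in replicates at UGT3A2, PLPPR4 and PPFIA2, only in replicate 1 at NCMAP, and in neither at SPAG17. PLPPR4 kept 94.4% and 100% of its island. Loss of the H3K27me3 call in both replicates was thus seen at 1 of the 5, beside 30.6% of all members and 50.2% of all shared DMSO islands. Most of these H3K4me3 islands had low scores. When a score of at least 2 times the lowest of each list was required, the mean share was 0.146% ± 0.207 (SD, n = 2). The members that passed came from a single replicate, so none passed in both. The share of members with a gain was therefore below 2% in every list, and 1.76% and 1.11% in the standard lists.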

How the data were processed

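The authors mapped single-end tags of 50 nt with BWA, both to hg19 (GRCh37) and to the D. melanogaster genome, used SAMtools 0.1.18 (per the submitters' processing notes), and kept unique tags without duplicates. They then removed human tags at random, either to equal numbers within a replicate (standard) or by the fly tags (spike-in), and called islands with SICER in each library against a random background, with windows of 200 bp, a gap size of 600 bp in the case of H3K27me3 or 200 bp in that of H3K4me3, and an E-value of 1. The value deposited with each island is its SICER score. No input list was used here, so that copy number and enrichment cannot be told apart.

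From the 14 lists, overlaps (at least 1 bp) and covered length were obtained in Python 3.11.15 with NumPy 2.4.6, tag density with SciPy 1.17.1 and plots with Matplotlib 3.10.9. The overlap, density and CpG calculations were tested on simulated data. Starts were GENCODE gene starts on GRCh37. Replicates were paired as the study's library table names them, since the authors removed tags within replicates. An exact sign-flip test of covered length was planned, but its smallest p over 2 pairs is 0.5 and the selection largely sets its direction, so values per replicate and the SD are given. Tags per window stand for depth, and no counting interval could be computed, since the lists hold no counts. Members, gene lists and named genes were chosen with earlier results of these data known. Named were the 10 highest-scoring members, the 5 highest-scoring without a GSK126 island, the 5 shortest and 5 lowest-scoring called in both GSK126 replicates, those that gained H3K4me3 in both, those at the thresholds, those with 3 or more starts and up to 4 genes per list. The 3 promoters shown, the excluded islands with least H3K4me3 overlap and single genes named within list counts fall outside this rule and were chosen after their values were seen. GSK126 islands were counted as called whatever their score. A promoter picked by the same rule as those shown and a marker list are not reported here.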

Additional observations from a re-analysis of the deposited data

How the results depend on the processing

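Of the settings tried, the count of 1707 members changed by over 1.5 times only when the start of any transcript of a protein-coding gene was accepted, which gave 3636 members by construction. With these members, 58.4% overlapped a GSK126 spike-in island and 78.9% a GSK126 standard island, against 62.5% and 81.9%. Both shares were higher when the members were taken from the standard DMSO lists (68.0% and 87.4%) or when a score of at least 2 times the lowest was required (74.0% and 92.5%), and both were lower when at least 50% of the member had to be covered (47.5% and 76.8%). The difference from bivalent islands was −1.79 percentage points within score classes, against −6.22. The share of members with H3K4me3 with GSK126 was 1.44% in the standard lists and 0.146% with the stricter score, against 0.762%. The cause of these changes was not tested. No value reversed its direction. Without replicate 1 or replicate 2, the spike-in share was 61.6% to 63.5%, the standard share 80.2% to 83.6%, the log2 ratio of covered length −0.90 to −0.73, the difference from bivalent islands −7.56 to −4.88, the H3K4me3 share 0.586% to 0.937% and the median log2 score ratio 0.00 to 0.02. Leaving out the replicate block (the pairing) gave the same log2 ratio of covered length, −0.82. With 1000 bp either side of the start, the median CpG ratio was 0.341, against 0.382. The GSK126 spike-in lists and H3K4me3 replicate 2 had the fewest tags per window, and the part of depth in their calls was not tested.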
